A study of Mus musculus with 8 samples.

Results

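The genes of the mitochondrial ribosomal proteins were taken as the symbols in the count table that start with *Mrpl* or *Mrps*, go on with a number and end there or after 1 letter. The rule gave 77 of the 29234 gene symbols, 48 *Mrpl* genes named for the large subunit and 29 *Mrps* genes named for the small subunit. Wild-type (WT) epithelial organoids grown from crypts of the mouse colon received fecal supernatant of healthy control mice (FS_CTR) or of mice given dextran sodium sulfate (FS_DSS), an agent that injures the colon epithelium. Both supernatants were used at 4 mg/mL, with a time of 5 days in the labels, and RNA of 4 samples per condition was sequenced in bulk. By the methods of the study, fecal pellets were pooled and the supernatants filtered free of microbes, the mice were male C57BL/6N animals, and organoids were used after a passage. The organoids hold epithelium without the immune, muscle and nerve cells of the colon wall. No source used here says whether the 4 samples of a condition were separate cultures or came from separate mice, so each *p* value refers only to the variation among these libraries, and that variation may be technical.

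The mitochondrial ribosome translates the few messenger RNAs of the mitochondrial genome, which code for core subunits of the respiratory chain and of the ATP synthase. Its RNAs come from the mitochondrial genome, while its proteins are encoded in the nucleus, made in the cytosol and imported. The small subunit binds messenger RNA and decodes it, and the large subunit forms the peptide bond and releases the new chain through a tunnel at the inner membrane. In the colon, absorptive epithelial cells take much of their energy from oxidation of short-chain fatty acids in mitochondria.

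The libraries held between 18968416 and 27035243 counts. Markers of colon epithelium were all tested, and their summed level was between 14747 and 19773 CPM (counts relative to the library total, which TMM rescales) in FS_CTR and between 16244 and 17861 CPM in FS_DSS. Markers of immune cells, fibroblasts and muscle, endothelium, and nerve or glia each summed to at most 5.33 CPM in any library. FS_CTR 3 and 4 stood apart from the rest, with 38.7% and 33.3% of their counts on the 13 protein genes of the mitochondrial genome, against 2.83% to 6.98% in the other 6 libraries. Values of single genes without these libraries are given where they turned or moved by over 1.5 times, and the part of the mitochondrial share in those results was not tested.

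Transcripts of both subunits were less abundant in organoids treated with FS_DSS on the TMM scale, but not as a share of all counts. The *Mrpl* genes summed to 1433, 1642, 1854 and 1819 CPM in FS_CTR 1 to 4 and to 1129, 1373, 1367 and 1290 CPM in FS_DSS 1 to 4. The *Mrps* genes summed to 773, 866, 918 and 899 CPM in FS_CTR and to 609, 720, 746 and 690 CPM in FS_DSS. For both subunits each FS_DSS library lay below each FS_CTR library, and the lowest library of either condition was number 1. The mean of the *Mrpl* sum was 1687 ± 193 CPM in FS_CTR and 1290 ± 114 CPM in FS_DSS (SD, n = 4), 23.6% lower. The mean of the *Mrps* sum was 864 ± 64.3 CPM in FS_CTR and 691 ± 59.8 CPM in FS_DSS (SD, n = 4), 19.95% lower. In bulk RNA, fewer cells of a type and less RNA per cell cannot be told apart.

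As a share of all counts, with no TMM scaling, the members took 2608, 2858, 1775 and 1840 CPM in FS_CTR and 1965, 2358, 2448 and 2288 CPM in FS_DSS, and the conditions overlapped. As a share of the counts outside the mitochondrial genome they took 2748, 3073, 2896 and 2761 CPM in FS_CTR and 2098, 2487, 2547 and 2355 CPM in FS_DSS, which did not overlap. FS_CTR 3 and 4 were the lowest libraries on the former scale and lay within the FS_CTR range on the latter.

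**Figure D1:**
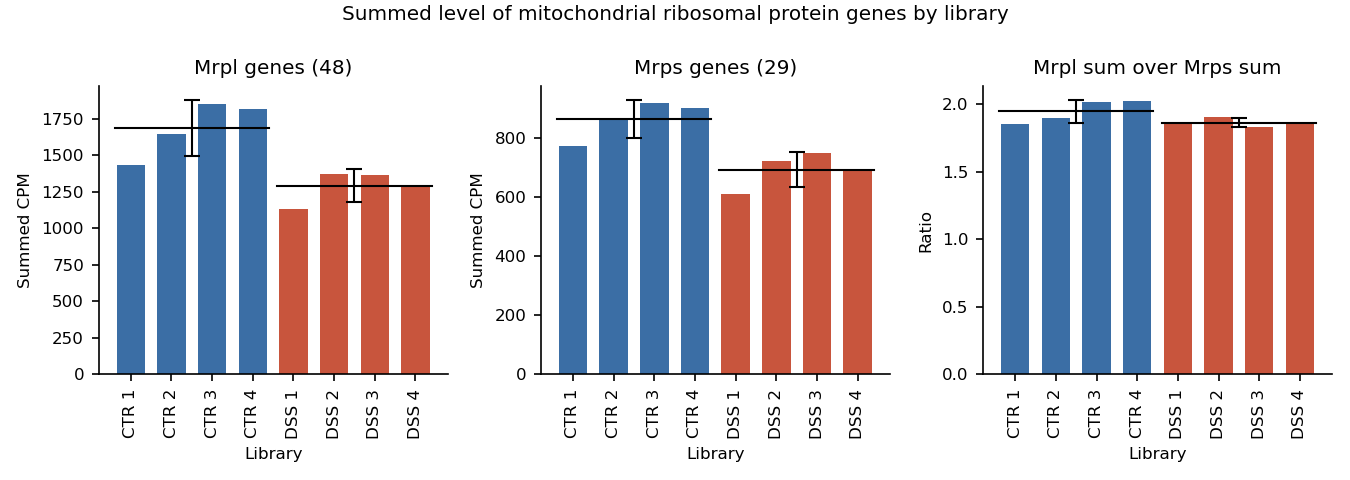
Bars give the summed CPM (TMM scaling) of the 48 *Mrpl* genes, the summed CPM of the 29 *Mrps* genes and the ratio of the sums in each library, in blue for FS_CTR and red for FS_DSS. Black lines and error bars are the mean and SD of 4 libraries: both sums were lower in each FS_DSS library than in each FS_CTR library on this scale, but not as a share of all counts, and the ratios, between 1.83 and 2.02, overlapped.

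Large and small subunit genes had like medians. The ratio of the *Mrpl* sum to the *Mrps* sum was 1.85, 1.90, 2.02 and 2.02 in FS_CTR and 1.86, 1.91, 1.83 and 1.87 in FS_DSS. The higher FS_CTR ratios came from libraries 3 and 4, and the ratios of FS_CTR 1 and 2 lay inside the FS_DSS range. The median Log2(FC), the log2 fold change of FS_DSS against FS_CTR, was -0.36 over the 47 *Mrpl* genes tested and -0.36 over the 29 *Mrps* genes, while the median of all 12729 genes tested was -0.02. Scaled by library totals alone, either subunit had a median of -0.01 and all genes a median of 0.31, so that the members as a whole lay 0.31 below all genes there and 0.34 below them with TMM. Values ranged from -0.98 to 0.12 in *Mrpl* genes and from -0.64 to 0.13 in *Mrps* genes.

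Of the 77 members, 76 passed the filter on low counts and 72 of these had a negative Log2(FC), against 52.5% of all genes tested. With library totals alone, 40 of 76 were negative. At an unadjusted *p* under 0.05 in the quasi-likelihood F test of edgeR, 48 members were lower in FS_DSS and 0 were higher, where 13.4% of all genes were lower and 10.6% higher. With library totals alone, 1 member, *Mrpl52*, was lower by this criterion (1.4% of all genes). The 48 comprised 26 of 47 *Mrpl* genes and 22 of 29 *Mrps* genes, or 37 of 47 and 23 of 29 with the replicate block (16.2% of all genes). With a Log2(FC) of -0.58 or less as a further condition, the threshold of the study, 13 members were left, 10 *Mrpl* and 3 *Mrps* genes, against 6.46% of all genes. In 35 members each FS_DSS library was lower than each FS_CTR library, against 7.58% of all genes. In 0 members was each FS_DSS library higher, against 7.41% of all genes.

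After Benjamini-Hochberg adjustment over all genes, 0 members passed 0.05 in edgeR (0.0% of all genes) and 0 in limma-voom, while DESeq2 called 31 lower. The share in DESeq2 was 4.12% of 18776 genes, to which the filter on low counts was not applied, so it is not on the same set as the 12729 genes of the other tests. With the replicate number as a block, 60 members were lower at an unadjusted *p* under 0.05 (16.2% of all genes), and *Mrpl30*, *Mrpl52*, *Mrps24* and *Mrpl12* passed the adjusted threshold (1.41% of all genes). The pairing behind the block was inferred from these data, not given by the labels. Without FS_CTR 1, 27 members passed an adjusted *p* of 0.05 (5.34% of all genes), and without FS_CTR 3 and 4 together 0 did, with 26 of 76 lower at an unadjusted *p* under 0.05 (10.9% of all genes). Without FS_CTR 3, 38 members were lower at an unadjusted *p* under 0.05 (9.02% of all genes). The count past the fold threshold as well was 4 without FS_CTR 3 (4.53% of all genes), 7 without FS_CTR 4 (5.5%), 6 without FS_DSS 1 (5.83%), 21 without FS_CTR 1 (8.34%) and 0 without FS_CTR 3 and 4 together (5.35%). In the latter comparison the median of the 76 members was -0.25 and 76 of them had a negative value.

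**Figure D2:**
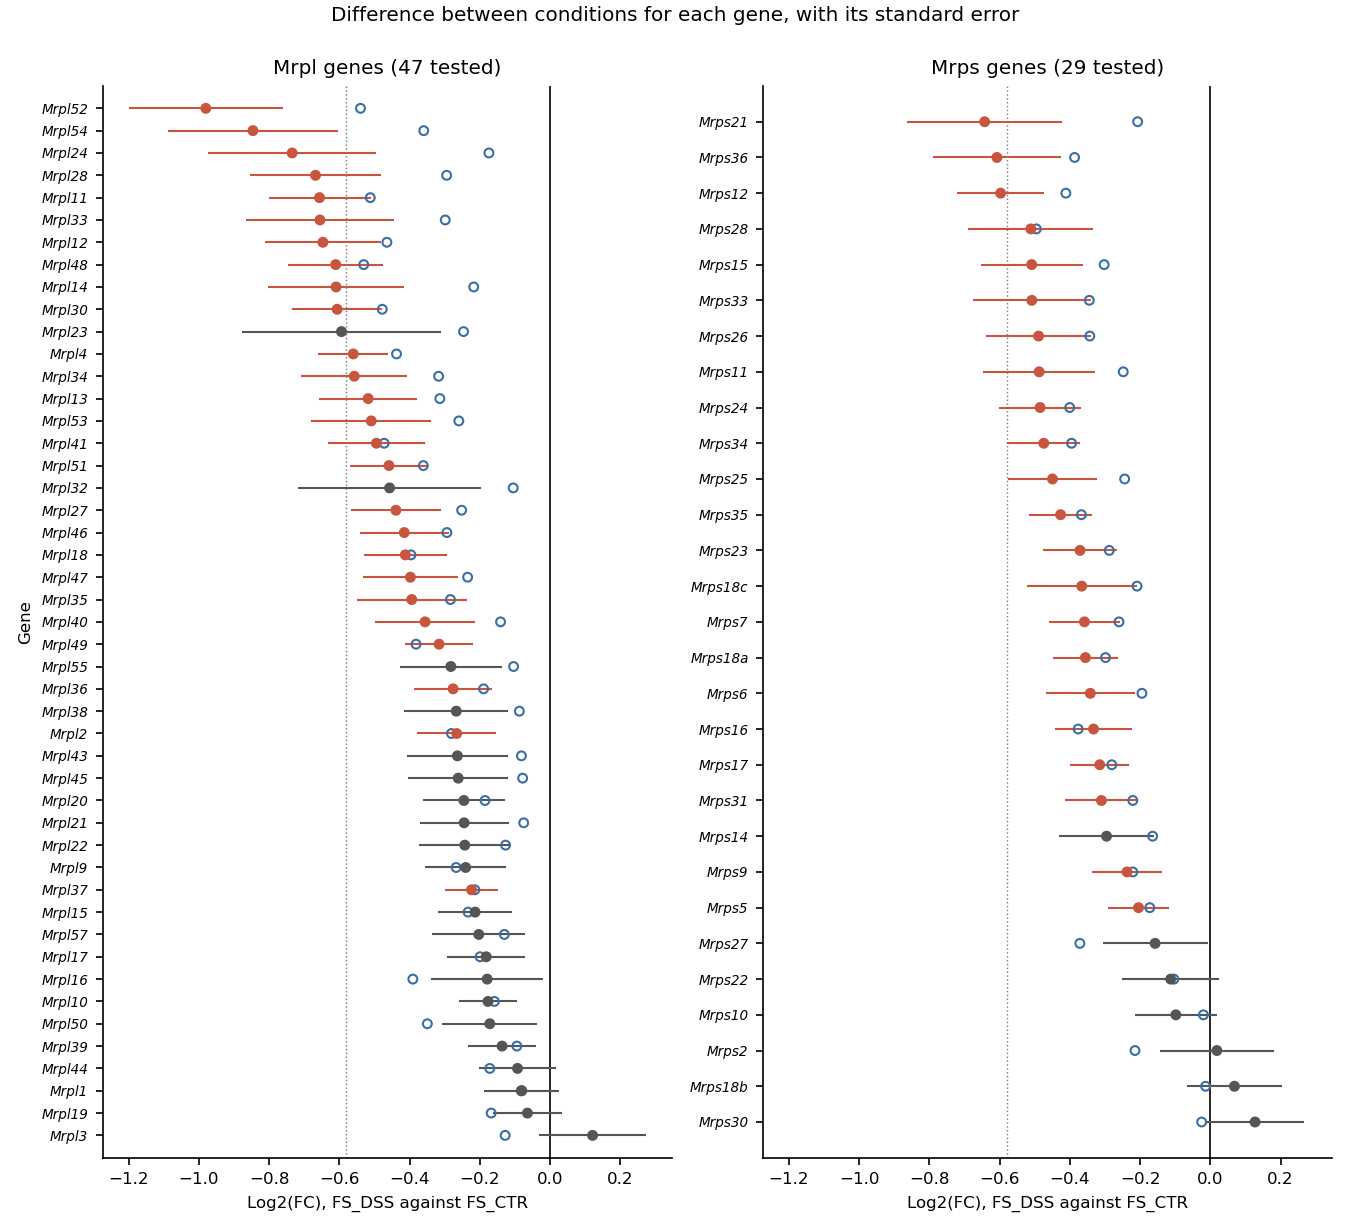
Points are Log2(FC) of FS_DSS against FS_CTR with bars of 1 standard error for the 47 *Mrpl* and 29 *Mrps* genes tested, in red where the unadjusted *p* was under 0.05, and the dotted line marks -0.58. Open blue circles are the values without FS_CTR 3 and 4: of the points, 72 lie below 0, and of the circles, 76, while with library totals alone as the scaling 40 of 76 lie below 0.

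Among large subunit genes, the smallest *p* belonged to *Mrpl4* (ENSMUSG00000003299.12), which codes for a protein of the peptide exit tunnel. It was at 38.0, 41.6, 48.6 and 45.3 CPM in FS_CTR and at 28.9, 32.0, 28.9 and 27.7 CPM in FS_DSS. The conditions did not overlap, and the FS_DSS libraries lay close together. Log2(FC) was -0.56 with a standard error of 0.10 (edgeR adjusted *p* = 0.078), and -0.44 without FS_CTR 3 and 4. *Mrpl52* (ENSMUSG00000010406.14), a protein found in the mitochondrial but not the bacterial ribosome, had the largest difference of the members. Its level was 27.5, 30.4, 52.0 and 47.6 CPM in FS_CTR and 15.9, 21.4, 22.1 and 20.1 CPM in FS_DSS. All FS_DSS libraries were below the FS_CTR libraries, among which 3 and 4 were far above 1 and 2. Log2(FC) was -0.98 with a standard error of 0.22 (edgeR adjusted *p* = 0.079, or 0.048 with the replicate block) and -0.54 without FS_CTR 3 and 4.

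*Mrpl30*, a protein of the large subunit with a bacterial counterpart, was at 41.7, 48.8, 60.8 and 46.7 CPM in FS_CTR and at 28.98, 33.5, 36.0 and 31.4 CPM in FS_DSS. It did not overlap, and its Log2(FC) was -0.61 with a standard error of 0.13 (edgeR adjusted *p* = 0.078, or 0.040 with the replicate block). *Mrpl48*, at the central protuberance that contacts the small subunit, was at 18.8, 21.6, 22.8 and 22.3 CPM in FS_CTR and at 14.8, 14.7, 15.5 and 10.98 CPM in FS_DSS. Its FS_CTR libraries were alike, FS_DSS 4 was the lowest, and Log2(FC) was -0.61 with a standard error of 0.14 (edgeR adjusted *p* = 0.079), against -0.53 without FS_CTR 3 and 4. *Mrpl51*, a mitochondria-specific protein, was at 44.4, 54.1, 57.1 and 55.2 CPM in FS_CTR and at 34.1, 43.4, 39.1 and 36.6 CPM in FS_DSS. The conditions were apart by less than 2 CPM, between FS_CTR 1 and FS_DSS 2, and Log2(FC) was -0.46 with a standard error of 0.11 (edgeR adjusted *p* = 0.086).

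The stalk of the large subunit is where translation factors dock, with *Mrpl10* as its anchor, *Mrpl12* as the flexible arm and *Mrpl11* at its base. *Mrpl12* was at 64.4, 78.7, 94.0 and 87.7 CPM in FS_CTR and at 39.6, 61.4, 58.5 and 47.7 CPM in FS_DSS. The conditions did not overlap, although FS_DSS 2 came near FS_CTR 1, and Log2(FC) was -0.65 with a standard error of 0.16 (edgeR adjusted *p* = 0.088, or 0.048 with the replicate block). *Mrpl11* was at 16.2, 17.1, 19.8 and 20.5 CPM in FS_CTR and at 9.16, 12.9, 12.7 and 11.9 CPM in FS_DSS, with a Log2(FC) of -0.66 ± 0.15 (SE, edgeR adjusted *p* = 0.079). *Mrpl10* was at 60.1, 68.4, 64.5 and 67.1 CPM in FS_CTR and at 52.5, 61.6, 57.4 and 58.6 CPM in FS_DSS. FS_DSS 2 was above FS_CTR 1 for this gene, and its Log2(FC) of -0.18 ± 0.08 (SE) did not pass the test (edgeR adjusted *p* = 0.23). *Mrpl53* and *Mrpl54*, mitochondria-specific proteins near the stalk, had values of -0.51 and -0.85, or -0.26 and -0.36 without FS_CTR 3 and 4. Of the 5 genes, 4 were lower at an unadjusted *p* under 0.05 (13.4% of all genes), with a median of -0.65, and 2 of them were lower without FS_CTR 3 and 4 (10.9% of all genes), with a median of -0.36.

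By place in the subunit, the central protuberance had 7 of 9 genes lower at an unadjusted *p* under 0.05 with a median of -0.42, counting *Ict1*, and the tunnel exit 2 of 9 with a median of -0.24, against 13.4% of all genes. Without FS_CTR 3 and 4 the counts were 3 and 1 of 9 (10.9% of all genes), with medians of -0.29 and -0.17, and with the replicate block they were 9 and 5 of 9 (16.2% of all genes). The 2 genes of the tunnel exit that passed were *Mrpl24* and *Mrpl47*. *Mrpl24*, the most abundant member, was at 66.9, 78.1, 145 and 139 CPM in FS_CTR and at 63.3, 66.6, 64.1 and 62.8 CPM in FS_DSS. FS_CTR 3 and 4 were far above all other libraries, and FS_CTR 1 was within 1 CPM of FS_DSS 2. Log2(FC) was -0.73 ± 0.24 (SE, edgeR adjusted *p* = 0.12) and -0.17 without FS_CTR 3 and 4. *Mrpl45*, which tethers the tunnel exit to the inner membrane, was at 37.2, 43.1, 50.6 and 51.7 CPM in FS_CTR and at 30.5, 42.6, 41.3 and 37.6 CPM in FS_DSS. These values overlapped, with a Log2(FC) of -0.26 ± 0.14 (SE, edgeR adjusted *p* = 0.29), or -0.08 without FS_CTR 3 and 4. The genes of the large subunit with a counterpart in bacteria were lower at an unadjusted *p* under 0.05 in 16 of 30 cases (13.4% of all genes) with a median of -0.40, and without FS_CTR 3 and 4 in 8 of 30 (10.9% of all genes) with a median of -0.24. With the replicate block 24 of 30 were lower (16.2% of all genes).

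Among small subunit genes, *Mrps12* (ENSMUSG00000045948.10), a protein of the decoding centre, had the smallest *p*. It was at 24.5, 25.4, 32.2 and 31.5 CPM in FS_CTR and at 16.7, 19.3, 19.1 and 19.8 CPM in FS_DSS. The conditions did not overlap, with more than 4 CPM between them. Log2(FC) was -0.60 ± 0.12 (SE, edgeR adjusted *p* = 0.078) and -0.41 without FS_CTR 3 and 4. *Mrps35*, a mitochondria-specific protein of the head, was at 32.1, 36.2, 37.6 and 36.4 CPM in FS_CTR and at 26.2, 27.7, 27.6 and 24.3 CPM in FS_DSS. Its FS_CTR libraries were alike apart from a lower FS_CTR 1, and Log2(FC) was -0.43 ± 0.09 (SE, edgeR adjusted *p* = 0.078), against -0.37 without FS_CTR 3 and 4.

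*Mrps34*, also specific to mitochondria, was at 31.2, 30.3, 36.6 and 32.0 CPM in FS_CTR and at 20.7, 24.7, 25.2 and 23.0 CPM in FS_DSS. It did not overlap, and Log2(FC) was -0.47 ± 0.10 (SE, edgeR adjusted *p* = 0.079). *Mrps24*, the counterpart of the bacterial protein at the entry of the messenger RNA channel, was at 30.5, 36.0, 38.0 and 36.5 CPM in FS_CTR and at 20.8, 26.96, 26.8 and 26.2 CPM in FS_DSS. FS_DSS 1 stood below the others, and Log2(FC) was -0.48 ± 0.12 (SE, edgeR adjusted *p* = 0.084, or 0.047 with the replicate block). *Mrps17*, with a bacterial counterpart, was at 33.4, 38.6, 37.5 and 37.8 CPM in FS_CTR and at 28.2, 29.5, 31.4 and 29.3 CPM in FS_DSS. It did not overlap, but its Log2(FC) of -0.31 ± 0.08 (SE, edgeR adjusted *p* = 0.093) became 0.02 with library totals alone and 0.01 with an offset for coding length.

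*Mrps5*, at the channel for messenger RNA and the most abundant gene named for the small subunit, was at 48.7, 52.2, 55.6 and 49.8 CPM in FS_CTR and at 40.0, 45.4, 48.2 and 45.3 CPM in FS_DSS. The gap between FS_CTR 1 and FS_DSS 3 was under 1 CPM, and Log2(FC) was -0.20 ± 0.09 (SE, edgeR adjusted *p* = 0.19). Of the least abundant genes of this subunit, *Mrps28* was at 8.88, 9.17, 10.4 and 8.07 CPM in FS_CTR and at 4.63, 6.27, 7.60 and 7.07 CPM in FS_DSS. *Mrps16* was at 13.8, 14.4, 14.1 and 12.4 CPM in FS_CTR and at 10.1, 10.3, 11.4 and 11.6 CPM in FS_DSS. Neither overlapped, with Log2(FC) of -0.51 and -0.33 (edgeR adjusted *p* = 0.14 and 0.13). Of the 8 genes of the head of the small subunit, 6 were lower at an unadjusted *p* under 0.05 (13.4% of all genes), and the median was -0.33. Of the 16 small subunit genes with a bacterial counterpart, 13 were lower (13.4% of all genes), with a median of -0.35. Without FS_CTR 3 and 4 the counts were 2 of 8 and 5 of 16 (10.9% of all genes), with medians of -0.24 and -0.23.

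The *Mrps18* paralogs descend from a bacterial protein of the small subunit, and their values differed. *Mrps18a*, whose protein sits in the large subunit despite its name, was at 31.2, 34.7, 36.6 and 34.6 CPM in FS_CTR and at 24.4, 26.3, 28.5 and 27.8 CPM in FS_DSS. *Mrps18c*, a small subunit protein, was at 19.9, 26.4, 26.5 and 30.5 CPM in FS_CTR and at 17.5, 22.7, 22.3 and 17.5 CPM in FS_DSS. *Mrps18b*, likewise in the small subunit, was at 35.8, 46.6, 35.5 and 37.5 CPM in FS_CTR and at 32.2, 42.1, 44.9 and 43.9 CPM in FS_DSS. *Mrps18a* did not overlap, FS_CTR 1 fell inside the FS_DSS range of *Mrps18c*, and the conditions were mixed for *Mrps18b*. Log2(FC) was -0.36 ± 0.09 (SE, edgeR adjusted *p* = 0.089) for *Mrps18a*, -0.37 ± 0.16 (SE, edgeR adjusted *p* = 0.20) for *Mrps18c* and 0.07 ± 0.14 (SE, edgeR adjusted *p* = 0.78) for *Mrps18b*, and differences between the paralogs were not tested. *Mrps18c* was 0.00 with library totals alone, and without FS_CTR 3 and 4 *Mrps18c* was at -0.21 and *Mrps18b* at -0.01.

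**Figure D3:**
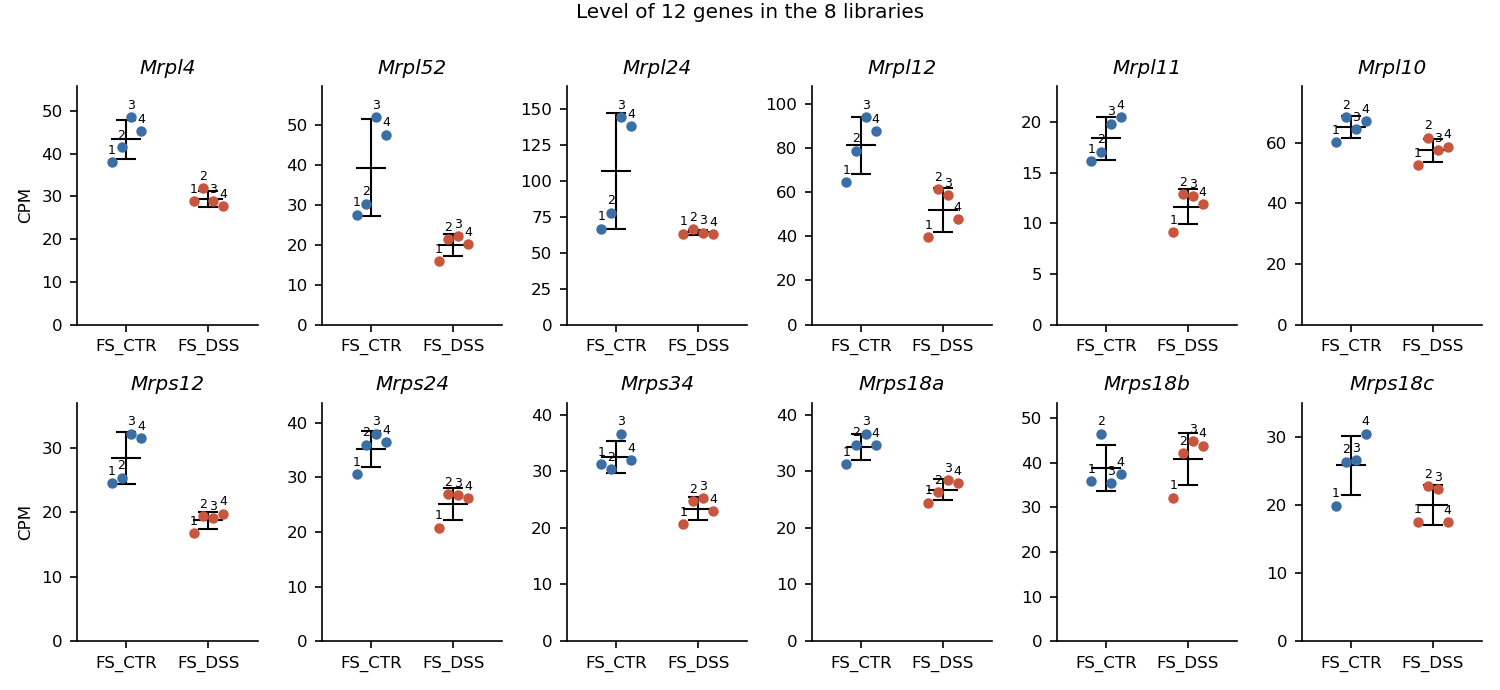
CPM (TMM scaling) of 12 genes in the 8 libraries, with the replicate number above each point and the mean and SD of 4 libraries in black. The FS_CTR and FS_DSS points of *Mrpl4*, *Mrps12* and *Mrps34* are apart, those of *Mrpl24* are split by FS_CTR 3 and 4 at 145 and 139 CPM, and those of *Mrpl10*, *Mrps18b* and *Mrps18c* overlap.

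*Mrps30* and *Mrps36* carry small subunit names too, but the former protein sits in the large subunit and the latter belongs to the 2-oxoglutarate dehydrogenase complex of the citric acid cycle. *Mrps30* was at 23.7, 26.8, 21.4 and 18.7 CPM in FS_CTR and at 20.5, 26.8, 26.6 and 25.4 CPM in FS_DSS. *Mrps36* was at 13.6, 18.1, 19.4 and 23.0 CPM in FS_CTR and at 10.9, 12.7, 14.6 and 10.3 CPM in FS_DSS. Both overlapped, with Log2(FC) of 0.13 ± 0.14 (SE, edgeR adjusted *p* = 0.59) for *Mrps30* and -0.61 ± 0.18 (SE, edgeR adjusted *p* = 0.11) for *Mrps36*, and without FS_CTR 3 and 4 the values were -0.02 and -0.39. With *Mrps18a* and *Mrps30* counted in the large subunit and *Mrps36* left out, the medians were -0.36 for 49 large and -0.36 for 26 small subunit genes. Of these, 27 and 20 were lower at an unadjusted *p* under 0.05 (13.4% of all genes).

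The 4 members with positive values were *Mrps30*, *Mrpl3* at 0.12, *Mrps18b* and *Mrps2* at 0.02, and 0 of them passed an unadjusted *p* of 0.05. *Mrpl3*, next to the centre that forms the peptide bond, was at 41.2, 41.5, 27.5 and 28.5 CPM in FS_CTR and at 35.7, 39.9, 39.1 and 36.8 CPM in FS_DSS. *Mrps2* was at 37.4, 38.3, 29.9 and 22.8 CPM in FS_CTR and at 29.2, 32.2, 34.8 and 34.1 CPM in FS_DSS. In both genes FS_CTR 3 and 4 were below FS_CTR 1 and 2, and without FS_CTR 3 and 4 the values were -0.13 and -0.21. *Mrpl3* and *Mrps2* were named after their values were seen.

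The least abundant members of the large subunit were *Mrpl42* and *Mrpl23*. *Mrpl42* had 0, 0, 11 and 0 counts in FS_CTR and 3, 3, 0 and 10 counts in FS_DSS and was removed by the filter on low counts. *Mrpl23*, a protein of the tunnel exit, was at 2.44, 3.15, 4.45 and 4.30 CPM in FS_CTR and at 1.61, 2.46, 2.18 and 3.16 CPM in FS_DSS, which overlapped. Its annotated pseudogene *Mrpl23-ps1* was at 16.9, 21.5, 24.9 and 25.4 CPM in FS_CTR and at 11.1, 14.2, 15.5 and 14.4 CPM in FS_DSS. The pseudogene thus had more counts than the gene in each library, and how reads were split between these copies is uncertain. Log2(FC) was -0.59 ± 0.28 for *Mrpl23* (SE, edgeR adjusted *p* = 0.24), or -0.25 without FS_CTR 3 and 4, and -0.68 for *Mrpl23-ps1* (edgeR adjusted *p* = 0.084). The pseudogenes named for *Mrpl48* and *Mrps36* were at 0 counts in the 8 libraries.

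Per kilobase of coding sequence, on the scale of mean CPM over the 8 libraries, the level was between 6.78 (*Mrpl23*) and 132 (*Mrpl24*) in *Mrpl* genes tested, with a median of 49.99. It was between 13.9 (*Mrps28*) and 103 (*Mrps6*) in *Mrps* genes, with a median of 42.8. These levels are of RNA, while the proteins are parts of the same particle.

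**Figure D4:**
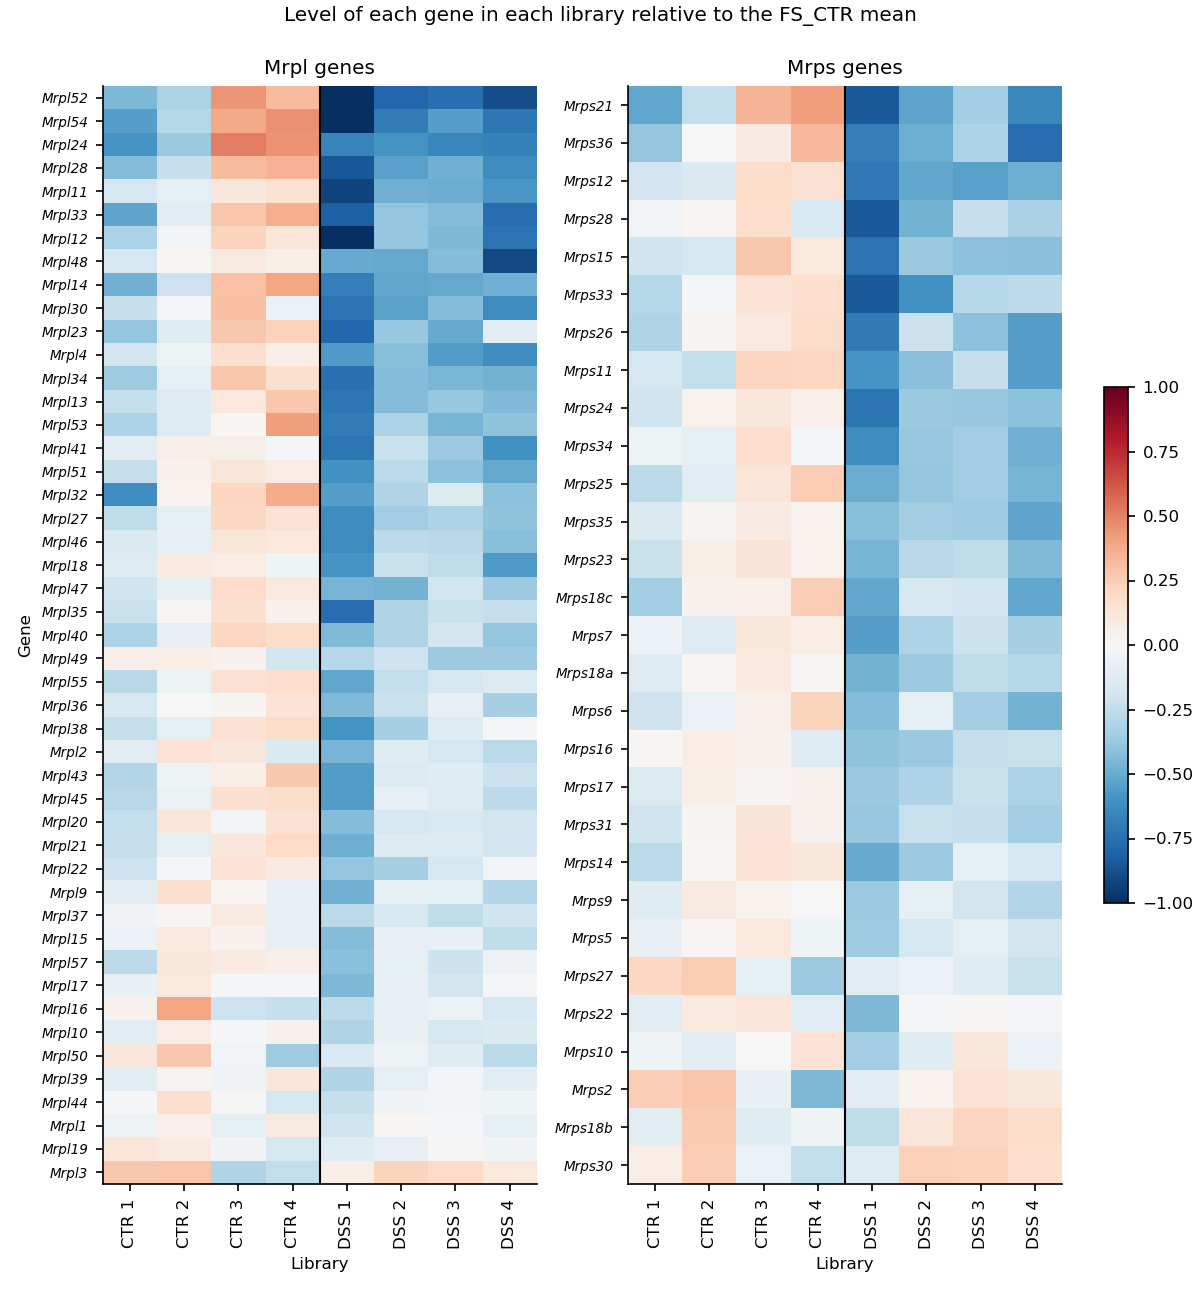
Colour gives log2(CPM + 1) of each gene in each library minus its mean over FS_CTR, from -1 (blue) to 1 (red), with genes ordered by Log2(FC) and CPM scaled by TMM. Of 76 genes, 75, 71, 69 and 72 lie below the FS_CTR mean of CPM in FS_DSS 1 to 4, while in FS_CTR 1 to 4 the counts are 67, 37, 15 and 24. With library totals alone as the scaling 40 of 76 have a negative Log2(FC).

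The spread within FS_CTR was of the same order as the difference between conditions. The mean of FS_CTR 3 and 4 was above the mean of FS_CTR 1 and 2 in 61 of 76 members, with ratios from 0.68 (*Mrpl3*) to 1.95 (*Mrpl24*) and a median of 1.14. In 9 members that ratio was past 1.5. The ratio of the FS_DSS mean to the mean of FS_CTR 1 and 2 was below 1 in 76 of 76 members, between 0.69 (*Mrpl52*) and 0.99 (*Mrps18b*), with a median of 0.84. Of the 26 members lower at an unadjusted *p* under 0.05 without FS_CTR 3 and 4, 23 were among the 48 members lower with all libraries.

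The members are short genes, and shorter genes had lower values over the whole table. The median coding length was 582 nt in the members tested and 1395 nt in the 12211 protein-coding genes tested. Across genes, the Spearman correlation of Log2(FC) with coding length was 0.51 over the 76 members and 0.34 over the protein-coding genes. Genes are not independent replicates, and all values are from the same 8 libraries. In the members, the ratio of FS_CTR 3 and 4 to FS_CTR 1 and 2 correlated with coding length at -0.47. The ratio of FS_DSS to FS_CTR 1 and 2 did so at 0.30. A trend with length was thus present within FS_CTR too. The 38 members at or below the median length had a median Log2(FC) of -0.46 with 29 lower at an unadjusted *p* under 0.05, and the 38 above it had -0.24 with 19 lower (13.4% of all genes). With an offset for the trend of each library on transcript length, 30 of 76 members were lower at an unadjusted *p* under 0.05 (9.39% of all genes) and the median was -0.18. With it 1 member, *Mrps18b*, was higher by the same criterion, as were 1465 of 12729 genes. With an offset on coding length, chosen after the data were seen, 25 were lower (9.78% of all genes) and the median was -0.16, and 30 of the 48 members of the comparison without an offset stayed past 0.05 in the former and 25 in the latter. The part of length in the difference was not tested beyond these offsets.

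**Figure D5:**
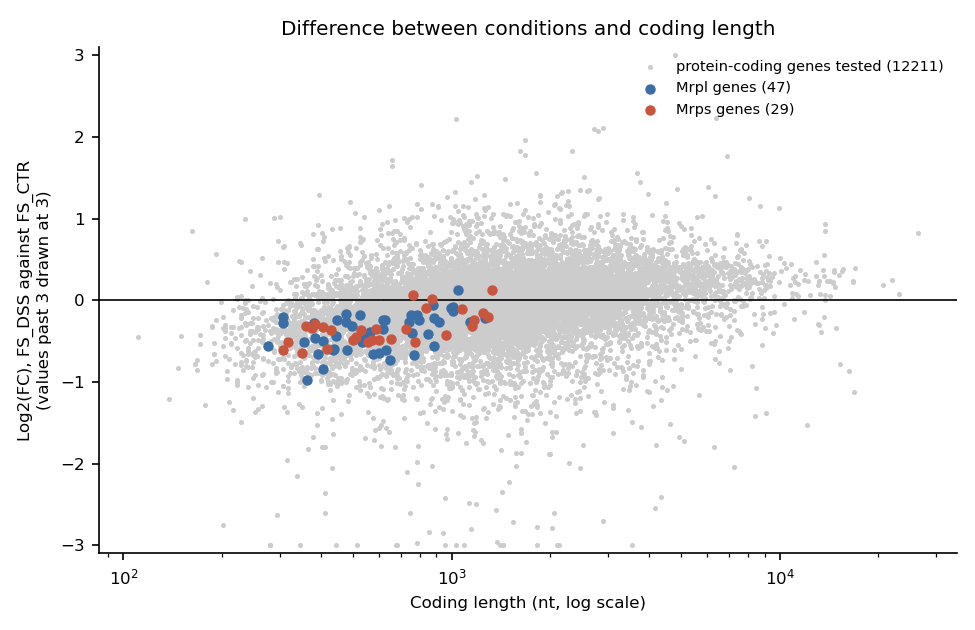
Log2(FC) of FS_DSS against FS_CTR (TMM scaling) against coding length in nt on a log axis, for 12211 protein-coding genes tested (grey), 47 *Mrpl* genes (blue) and 29 *Mrps* genes (red), with values past 3 drawn at 3. The members lie at the short end, with a median of 582 nt, and mostly below 0, where with library totals alone 40 of 76 do.

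The genes are spread over 17 chromosomes, with at most 10 on a chromosome (chromosome 11). Of the 77 members, 29 (37.7%) had a neighbour on the other strand whose start lay within 1000 nt of their own, against 14.7% of the protein-coding genes tested. Members with such a neighbour had a median Log2(FC) of -0.37 and those without one -0.34. The 25 tested neighbours that were not members had a median of -0.13, and 5 were lower and 3 higher at an unadjusted *p* under 0.05, against 13.4% and 10.6% of all genes. *Mrpl46* and *Mrps11* face each other across such a start, and their annotated 5′ ends on chromosome 7 overlap (78424922 to 78433279 and 78432867 to 78442739 in GRCm39). *Mrpl46* was at 19.1, 19.98, 23.1 and 22.9 CPM in FS_CTR and at 13.3, 17.6, 17.3 and 15.6 CPM in FS_DSS, and *Mrps11* at 13.0, 12.3, 17.4 and 17.2 CPM and at 9.49, 10.8, 12.4 and 9.82 CPM. *Mrpl46* did not overlap, *Mrps11* did, and Log2(FC) was -0.41 and -0.49 (edgeR adjusted *p* = 0.11 and 0.13), or -0.29 and -0.25 without FS_CTR 3 and 4. By the methods of the study the libraries were stranded, but no source used here gives the strand setting of the counting, so how reads of the shared end were assigned is uncertain. *Mrps12* shares its start region with *Sars2*, which codes for the mitochondrial seryl-tRNA synthetase and had a Log2(FC) of -0.40 (-0.25 without FS_CTR 3 and 4), while *Mrpl4* shares one with *S1pr2*, a receptor for sphingosine 1-phosphate, which had 0.55. The annotated 5′ ends overlap in both of these pairs and in most of the others, so the same uncertainty holds for them.

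Promoter windows were examined for motifs because genes of the mitochondrial ribosome are known targets of ETS family factors such as GABP, of NRF1 and of YY1. RefSeq windows of 300 nt, from 250 nt before the start to 50 nt after it, were found for 68 of the 77 members, 74 windows in all on the build GRCm38.p6. The ETS motif CCGGAAG, on either strand, was in 33.8% of the members' windows, in 16.8% of the 12176 windows of genes tested and in 8.86% of all 32851 windows. The core of the NRF1 motif, TGCGCA, which reads the same on both strands, was in 28.4%, 13.2% and 7.76%, and the YY1 motif AAGATGGCG in 10.8%, 2.87% and 1.40%. The CCAAT box, read as CCAAT, was in 40.5%, 37.7% and 37.4%, the E box CACGTG in 9.46%, 9.62% and 7.15%, and the TATA box TATAAA in 6.76%, 7.41% and 13.6%. None of these motifs holds another of them whole. The median Log2(FC) was -0.37 in 25 tested members with the ETS motif and -0.32 in 42 without it, -0.30 in 20 with the NRF1 core and -0.40 in 47 without it, and -0.36 in 7 with the YY1 motif and -0.35 in 60 without it. These are matches of letters, not sites of binding.

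The 4 windows shown are those of a member with the ETS motif and the largest difference (*Mrpl52*), the small subunit gene with the smallest *p* (*Mrps12*), a member with the YY1 motif (*Mrps24*) and a member with the ETS motif whose conditions were mixed (*Mrps18b*). They are from RefSeq, GRCm38.p6, written from 5′ to 3′ on the strand of the gene, with matches to the ETS or YY1 motif on either strand in capitals.
Mrpl52 promoter, chr14:54426659-54426958, plus strand: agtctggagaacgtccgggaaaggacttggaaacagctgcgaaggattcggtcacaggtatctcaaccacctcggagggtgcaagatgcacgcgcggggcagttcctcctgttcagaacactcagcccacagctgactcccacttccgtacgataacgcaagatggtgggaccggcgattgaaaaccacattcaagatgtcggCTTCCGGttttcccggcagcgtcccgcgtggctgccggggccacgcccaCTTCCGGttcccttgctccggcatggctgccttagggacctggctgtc
Mrps12 promoter, chr7:28741772-28742071, minus strand: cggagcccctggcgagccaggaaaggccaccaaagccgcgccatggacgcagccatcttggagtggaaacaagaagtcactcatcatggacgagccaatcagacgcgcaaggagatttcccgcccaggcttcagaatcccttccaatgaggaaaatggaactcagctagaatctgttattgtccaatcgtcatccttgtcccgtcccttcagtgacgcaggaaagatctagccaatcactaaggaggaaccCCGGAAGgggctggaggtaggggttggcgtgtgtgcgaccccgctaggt
Mrps24 promoter, chr11:5707652-5707951, minus strand: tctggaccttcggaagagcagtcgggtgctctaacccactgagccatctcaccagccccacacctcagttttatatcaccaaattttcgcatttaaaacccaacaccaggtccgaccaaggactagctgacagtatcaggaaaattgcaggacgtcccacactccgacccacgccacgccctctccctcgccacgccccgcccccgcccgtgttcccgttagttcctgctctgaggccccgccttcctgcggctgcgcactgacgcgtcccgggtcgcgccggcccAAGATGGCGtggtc
Mrps18b promoter, chr17:35916391-35916690, minus strand: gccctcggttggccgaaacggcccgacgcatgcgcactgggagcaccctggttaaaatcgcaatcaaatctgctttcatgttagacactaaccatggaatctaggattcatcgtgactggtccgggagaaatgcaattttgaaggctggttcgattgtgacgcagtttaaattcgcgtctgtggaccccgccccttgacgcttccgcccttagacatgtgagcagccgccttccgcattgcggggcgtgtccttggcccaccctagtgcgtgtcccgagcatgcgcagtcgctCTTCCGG

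Other genes of mitochondrial translation were examined from whole lists. Of 5 further mitoribosomal proteins whose symbols lie outside the rule, 2 were lower at an unadjusted *p* under 0.05 (13.4% of all genes), with a median of -0.39, and 0 were lower without FS_CTR 3 and 4 (10.9% of all genes), with a median of -0.11. *Gadd45gip1*, a large subunit protein, was at 16.3, 19.1, 24.5 and 25.6 CPM in FS_CTR and at 10.8, 14.9, 15.3 and 15.4 CPM in FS_DSS, without overlap (Log2(FC) -0.60 ± 0.18, SE, edgeR adjusted *p* = 0.11, or -0.33 without FS_CTR 3 and 4). *Chchd1*, a small subunit protein, had -0.43 ± 0.16 (SE, edgeR adjusted *p* = 0.15, or -0.20 without FS_CTR 3 and 4), and its FS_DSS libraries overlapped with FS_CTR. *Ict1*, a peptidyl-tRNA hydrolase built into the large subunit, was at 22.8, 25.8, 27.1 and 24.8 CPM in FS_CTR and at 14.6, 17.9, 18.5 and 17.8 CPM in FS_DSS. It did not overlap, and its Log2(FC) was -0.55 ± 0.11 (SE, edgeR adjusted *p* = 0.078).

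Genes that build or run the particle had medians nearer to 0 than the members, by less without FS_CTR 3 and 4. The members are short genes, and the part of gene length in this was not tested. Of 25 assembly factors, 7 were lower at an unadjusted *p* under 0.05 and 0 higher, with a median of -0.18, against 13.4% and 10.6% of all genes. Among them *Wbscr16*, an RCC1-like protein of mitoribosome assembly, had -0.46 ± 0.12 (SE, edgeR adjusted *p* = 0.089), and *Mettl17*, needed for the small subunit, had -0.48 ± 0.15 (SE, edgeR adjusted *p* = 0.11), and without FS_CTR 3 and 4 these were -0.30 and -0.21. Of 17 translation factors tested, 5 were lower (13.4% of all genes), with a median of -0.09, among them the elongation factor Ts gene *Tsfm* at -0.51 ± 0.12 (SE, edgeR adjusted *p* = 0.080) and the elongation factor 4 gene *Guf1* at -0.42 ± 0.12 (SE, edgeR adjusted *p* = 0.10). Of 20 mitochondrial aminoacyl-tRNA synthetases, 4 were lower (13.4% of all genes), with a median of -0.10. The cysteinyl-tRNA synthetase gene *Cars2* was at 5.55, 7.43, 9.14 and 6.25 CPM in FS_CTR and at 4.29, 4.24, 4.26 and 2.74 CPM in FS_DSS (Log2(FC) -0.86 ± 0.22, SE, edgeR adjusted *p* = 0.088). Of 14 regulators of mitochondrial biogenesis, 1 was lower and 2 were higher, with a median of 0.06, against 13.4% and 10.6% of all genes. Without FS_CTR 3 and 4 the medians were -0.16 for assembly factors, -0.21 for translation factors, -0.17 for synthetases and -0.02 for regulators, against -0.25 for the members. In that comparison 5 of 25 assembly factors, 7 of 17 translation factors and 3 of 20 synthetases were lower, against 26 of 76 members and 10.9% of all genes.

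*Esrra*, a nuclear receptor that works with PGC-1 coactivators, was at 120, 125, 204 and 195 CPM in FS_CTR and at 119, 135, 109 and 95.7 CPM in FS_DSS. FS_CTR 3 and 4 were above the other libraries, which were mixed, and Log2(FC) was -0.49 ± 0.20 (SE, edgeR adjusted *p* = 0.18), or -0.10 without FS_CTR 3 and 4. *Myc*, a transcription factor of growth genes, was at 173, 164, 108 and 98.4 CPM in FS_CTR and at 183, 210, 176 and 212 CPM in FS_DSS (Log2(FC) 0.52 ± 0.19, SE, edgeR adjusted *p* = 0.15, or 0.21 without FS_CTR 3 and 4). *Gabpb1*, a subunit of the ETS factor GABP, had 0.23 ± 0.09 (SE, edgeR adjusted *p* = 0.18). FS_CTR 3 and 4 were the low libraries for *Myc*, which did not overlap, and *Gabpb1* overlapped.

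Ribosomal proteins of the cytosol and nuclear subunits of oxidative phosphorylation (OXPHOS) had medians further from 0 than the members. Of 77 cytosolic ribosomal protein genes, 73 were lower at an unadjusted *p* under 0.05 (13.4% of all genes), with a median of -0.75, and of 74 nuclear OXPHOS genes, 58 were, with a median of -0.53. Summed, the cytosolic genes were at 36080 ± 6429 CPM in FS_CTR and 22350 ± 3296 CPM in FS_DSS (SD, n = 4), and the OXPHOS genes at 11178 ± 1046 CPM and 8458 ± 752 CPM (SD, n = 4), and neither sum overlapped. The cytosolic sum was 38.1% lower in FS_DSS and the OXPHOS sum 24.3% lower, against 22.3% for all members. With the transcript length offset the medians were -0.41 for cytosolic genes, -0.24 for OXPHOS genes and -0.18 for the members. Examples with the smallest *p* were *Rps4x* at -0.66 ± 0.11 and *Rpl13a* at -0.61 ± 0.12, and *Ndufb11* of complex I at -0.59 ± 0.09 and *Uqcr10* of complex III at -0.75 ± 0.12 (SE, edgeR adjusted *p* = 0.078 for each). With library totals alone, 18 cytosolic ribosomal protein genes and 3 OXPHOS genes were lower at an unadjusted *p* under 0.05 (1.4% of all genes), and without FS_CTR 3 and 4, 57 and 36 were (10.9% of all genes). Differences between any of the lists and the members were not tested.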

How the data were processed

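Bulk RNA of 8 organoid samples (FS_CTR and FS_DSS, n = 4 each) was sequenced from stranded libraries. The authors quantified reads with Salmon (1.10.1) against a mouse transcriptome of GRCm39 and summed transcripts to genes with tximport. No source used here gives the release or the strand setting of the counting. What was deposited are estimated counts of each gene symbol as whole numbers without normalization, and the DESeq2 (1.36.0) scaling of the authors is not in them. Columns of no mapped sample numbered 0. Salmon shares reads between similar transcripts by estimate, so that genes with near-identical copies are uncertain.

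Counts were scaled by TMM, genes with low counts were removed by filterByExpr (12729 of 29234 kept), and condition alone was tested by quasi-likelihood in edgeR (4.0.16, R 4.3.3) with Benjamini-Hochberg adjustment over all genes kept. Log2(FC) is that of the fit, and its approximate standard error is its size over the root of the F statistic. CPM values are on the TMM scale unless stated. The count criteria were an unadjusted *p* under 0.05, with or without a Log2(FC) of 0.58 in size as in the study, and an adjusted *p* under 0.05. The scripts were tested on simulated data with known fold changes. Members and gene lists were chosen with earlier results of these data known. The lists were written from general knowledge, and older symbols were matched through RefSeq.

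Genes were named by a rule: in each subunit the 6 lower and 6 higher members with the smallest *p* among those past 0.05, members past an adjusted *p* of 0.05 with the block, the *Mrps18* paralogs, *Mrps30*, *Mrps36*, *Mrpl10*, *Mrpl11*, *Mrpl12*, *Mrps12*, *Mrpl45* and *Ict1*, the 2 most and the 2 least abundant members of each subunit, and in each related list up to 2 genes per direction with the smallest *p* past 0.05. Named outside this rule were *Mrpl3*, *Mrps2*, *Mrpl46*, *Mrpl47*, *Mrpl53*, *Mrpl54*, *Mrps6*, *Mrps11*, *Mrpl23-ps1* and *S1pr2*. The positions are from the GENCODE annotation of GRCm39, and promoters are from RefSeq (GRCm38.p6), whose coordinates were not mixed with the former.

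Other scalings tried were library totals alone, the size factors of DESeq2 (1.42.0) and TMM computed without mitochondrially encoded genes. Other filters were none and a minimum of 10 counts in each library, and other tests were DESeq2 itself and limma-voom (3.58.1). Further alternatives were the replicate number as a block, an offset for the trend of each library on transcript length (a spline with 4 degrees of freedom), subunits assigned by place, and each library left out in turn. Leaving out FS_CTR 3 and 4 together and the offsets on coding length were added after the data were seen. The correlation of deviations from the group mean was 0.352, 0.221, 0.154 and 0.226 for same-numbered samples, each above 0.1, so the block treated the numbers as pairs from the data. Unlike numbers passed 0.1 too, FS_CTR 2 with FS_DSS 1 (0.142) and FS_CTR 3 with FS_DSS 4 (0.188). FS_CTR 3 thus correlated more with FS_DSS 4 than with its own number, and this cutoff cannot establish pairs. The labels do not say what a number stands for.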

Additional observations from a re-analysis of the deposited data

Results flagged for a closer look

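Over 86 groups of 4 libraries, for each named gene tested, the sum of each subunit and their ratio in either condition, a library far from the other 3 (a gap to its neighbour, relative to the range, above Dixon's 95% critical value) was found in 3. Chance alone gives about 1 in 20 groups. *Mrps24* was at 20.8 CPM in FS_DSS 1 and between 26.2 and 26.96 CPM in the other FS_DSS libraries. *Gadd45gip1* was at 10.8 CPM in FS_DSS 1, against 14.9 to 15.4 CPM. *Cars2* was at 2.74 CPM in FS_DSS 4, against 4.24 to 4.29 CPM. In the 3 genes the library that stood apart was the lowest of the 8.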

How the results depend on the processing

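With library totals alone, 1 member was lower at an unadjusted *p* under 0.05 (48 with TMM). Past the fold threshold as well were 0 members (13 with TMM), against 144 of 12729 genes. The medians were -0.00547 for large and -0.0107 for small subunit genes. Lower genes numbered 0 of the other mitoribosomal proteins, 0 assembly factors, 0 translation factors, 0 aminoacyl-tRNA synthetases, 3 OXPHOS genes, 18 cytosolic ribosomal protein genes and 178 of all genes, and 1 biogenesis regulator was higher. *Mrps17*, *Mrps5* and *Mrps18c* turned to 0.0236, 0.13 and 0.0028.

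With the transcript length offset, 30 members were lower, with medians of -0.17 (large) and -0.22 (small). Of these, 6 were past the fold threshold, against 544 of 12729 genes. Of the lists, 3 assembly factors and 2 translation factors were lower, 1 regulator was higher, and *Chchd1* turned to 0.0142. With the replicate block added to that offset, 29 members were lower (11.5% of all genes) and 0 higher, with medians of -0.17 and -0.22. Past the fold threshold as well were 4 members, against 518 of 12729 genes. Lower assembly factors numbered 4, and *Chchd1* was at 0.0139. With the coding length offset, 25 members were lower (9.78% of all genes), with medians of -0.16 and -0.17. Past the fold threshold as well was 1 member, against 566 of 12729 genes. Lower genes numbered 1 other mitoribosomal protein, 4 assembly factors, 2 translation factors and 38 OXPHOS genes, and *Mrps17* turned to 0.00709. With the block and the coding length offset, 26 members were lower (11.8% of all genes), with medians of -0.16 and -0.17. In that fit 1 member was past the fold threshold, against 540 of 12729 genes. There 1 other mitoribosomal protein and 4 assembly factors were lower, 5 regulators were higher, and *Mrps17* was at 0.0127.

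Without FS_CTR 3 and 4 together, 26 members were lower (10.9% of all genes) and 0 past the fold threshold, and 0 regulators were higher. Lower genes numbered 0 other mitoribosomal proteins, 5 assembly factors, 7 translation factors, 3 synthetases and 36 OXPHOS genes. limma-voom left 8 members past the fold threshold (667 of 12729 genes), and DESeq2 called 31 at an adjusted *p* under 0.05 (4.12% of 18776 genes). With the replicate block, which pairs samples by number, 60 members were lower at an unadjusted *p* under 0.05, 4 passed the adjusted *p*, 4 other mitoribosomal proteins were lower, *Mrpl10*, *Mrpl23* and *Mrpl45* came past 0.05 and *Esrra* no longer did. The block changed no other call of a named gene.

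Leaving out each library in turn gave 38 to 60 members lower, 4 to 21 past the fold threshold and 0 to 27 past the adjusted threshold. The medians went from -0.45 to -0.30 (large) and from -0.41 to -0.31 (small). Of all genes, 586 to 1070 were lower past the fold threshold. Lower genes numbered 1 to 4 other mitoribosomal proteins, 4 to 8 assembly factors, 3 to 5 translation factors, 2 to 5 synthetases, 51 to 62 OXPHOS genes, 71 to 74 cytosolic ribosomal protein genes and 1165 to 2190 of all genes, while 0 to 4 regulators and 873 to 1922 of all genes were higher. Of 40 named genes, 7 lost their call without FS_CTR 3 and at most 5 without any other library, and 0 changed sign. DESeq2 size factors and a minimum of 10 counts in every sample changed no call of the 40. With TMM computed without mitochondrially encoded genes, 44 of 76 members were lower (12.7% of all genes). Past the fold threshold as well were 13 members, against 769 of 12729 genes. The median of the members was -0.34 there, and 72 had a negative Log2(FC).

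With subunits taken by symbol, the difference between the medians of large and small subunit genes stayed within the spread between replicates (SD 0.0572 on the log2 scale) in each alternative. With subunits taken by place it went past that with the transcript length offset (medians of -0.16 and -0.22), with the block added to it (-0.15 and -0.23) and without FS_DSS 2 (-0.35 and -0.42). That SD is of single libraries and is wider than the spread of a mean of 4. A difference within it therefore does not show that the subunits were alike. Where a value moved, the cause was not tested. The 4 libraries per condition limit the precision, and *Mrpl42*, with the fewest counts, was removed by the filter.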
